A study of Mus musculus with 6 samples.

Results

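The unfolded protein response is described here in mouse liver through 34 genes, chosen as a list of gene symbols for chaperones, degradation factors, sensors and ATF4 targets, of 53715 genes in the count table, which were found through the Ensembl gene ID and its symbol. The genes matched 35 rows of the table, because Ddit3 has a second row for an upstream open reading frame, with 0 counts in every library. Livers came from male F1 mice of the outbred ICR strain at 8 weeks of age, and their RNA was sequenced as 3 FR F1 libraries and 3 control F1 libraries. FR F1 males had fathers whose exposure is labelled as famine, control F1 males are labelled as controls, and the series title speaks instead of an overdiet. What FR stands for, how many fathers or litters contributed and whether each library is 1 animal are not given in the labels, so the p-values refer to the spread among these 6 libraries, which may be technical.

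Proteins that enter the endoplasmic reticulum are folded there by chaperones, and the liver, which secretes most plasma proteins, makes these chaperones in quantity. When unfolded protein accumulates, the sensors IRE1 (gene Ern1), ATF6 and PERK (gene Eif2ak3) respond. IRE1 splices Xbp1 mRNA, and XBP1 and ATF6 then raise genes of folding and of the degradation of misfolded protein. PERK phosphorylates the translation factor eIF2, which lowers protein synthesis but favours translation of ATF4, whose targets serve amino acid supply, redox balance and feedback. The design allows 1 comparison, FR F1 against control F1 livers, and the 34 genes fall into 20 of the ATF6 and XBP1 arm, 4 sensors including Xbp1, and 10 of the ATF4 arm.

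None of the members passed the test. Of the 34, 32 had enough counts to be tested and 0 changed, where 0.837% of all 13022 genes tested did (edgeR quasi-likelihood test with an adjusted p under 0.05 after Benjamini and Hochberg, 3 libraries in each group). Of all genes 0.392% rose and 0.445% fell. Before adjustment 2 members, P4hb and Trib3, had a p under 0.05, both lower in FR F1 livers, beside 17.9% of all genes (9.02% higher and 8.88% lower). DESeq2 called 0 of the 32 members and 2.75% of its genes, and limma-voom called 0 and 0.791%. With other scalings or filters 0 members passed where 0.814% (RLE), 0.891% (upper quartile), 0.838% (CPM of at least 10 in 3 libraries) and 0.833% (genes near 1 count per base left out) of all genes did. With no filter on low counts 2 members passed, Trib3 and Dnajb9, and 4.04% of all genes. Leaving out FR replicate 1, 2 or 3 gave 0.0527%, 0.0825% and 0.336% of all genes, leaving out control replicate 1, 2 or 3 gave 4.83%, 0.127% and 1.19%, and 0 members passed in any of these 6 fits. The median log2 fold change of the ATF6 and XBP1 arm was 0.01 and that of the ATF4 arm -0.26, beside 0.00 over all genes tested. Without control replicate 2 the ATF4 arm's median was -0.12.

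The promoter letters below describe the members and carry no test, since several of these genes are known in the literature for this element. ERSE, the endoplasmic reticulum stress response element bound by ATF6 together with NF-Y, reads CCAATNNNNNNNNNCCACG, where N is any base. Its letters were searched on both strands in the 250 bases before each RefSeq start site (GRCm38.p6). They occurred in 8 of the 18 genes of the ATF6 and XBP1 arm that have a promoter entry, in 0 of 9 of the ATF4 arm and in 0 of 3 sensors, beside 0.13% of all 27025 genes, or 35 genes. Manf, Hyou1, Atf6 and Ppp1r15b had no entry. The element is shown in capitals with 20 bases on each side, 5′ to 3′ on the strand of the gene, for all 8 genes, since it is the sequence that these 8 share. In Calr and Creld2, and in the second element of Hsp90b1, it lies in reverse orientation, so the capitals begin with CGTGG.
Hspa5 (chr2:34772005-34772063, + strand): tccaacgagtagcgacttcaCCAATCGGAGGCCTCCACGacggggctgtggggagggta
Hsp90b1 (chr10:86705513-86705676, - strand): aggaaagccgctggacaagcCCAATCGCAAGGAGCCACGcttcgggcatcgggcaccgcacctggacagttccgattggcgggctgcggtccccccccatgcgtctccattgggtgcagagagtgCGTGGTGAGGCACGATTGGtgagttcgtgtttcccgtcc
Calr (chr8:84847055-84847113, - strand): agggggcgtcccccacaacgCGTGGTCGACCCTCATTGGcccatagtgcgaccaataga
Canx (chr11:50325780-50325838, - strand): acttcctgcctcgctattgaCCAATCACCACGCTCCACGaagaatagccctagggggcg
Pdia6 (chr12:17266471-17266529, + strand): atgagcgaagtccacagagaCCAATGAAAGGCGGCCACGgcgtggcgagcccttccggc
Dnajc3 (chr14:118937807-118937865, + strand): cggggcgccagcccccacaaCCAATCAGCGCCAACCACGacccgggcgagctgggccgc
Creld2 (chr15:88819500-88819558, + strand): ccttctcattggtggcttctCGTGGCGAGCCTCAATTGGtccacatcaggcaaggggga
Syvn1 (chr19:6046512-6046570, + strand): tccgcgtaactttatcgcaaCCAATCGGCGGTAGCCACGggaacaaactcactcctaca

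Herpud1 held the shorter form ERSE-II, ATTGGNCCACG, which 0.037% of all genes hold. CARE, the element bound by ATF4 with C/EBP factors and written here as TGATGNAA, was present in Asns and Chac1 of the ATF4 arm and in Herpud1, beside 3.91% of all genes. The UPRE core TGACGTG, tied to XBP1 and ATF6 binding, was present in Hspa5 alone among the members and in 1.85% of all genes. The promoters of Herpud1, Asns and Chac1 are given to show ERSE-II and CARE, with the ERSE-II of Herpud1 and the CARE of Asns and Chac1 in capitals.
Herpud1 (chr8:94386357-94386407, + strand): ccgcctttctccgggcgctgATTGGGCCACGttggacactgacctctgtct
Asns (chr6:7693210-7693252, - strand): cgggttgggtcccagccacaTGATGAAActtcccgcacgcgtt
Chac1 (chr2:119351029-119351076, + strand): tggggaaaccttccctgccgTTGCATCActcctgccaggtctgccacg

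**Figure D1:**
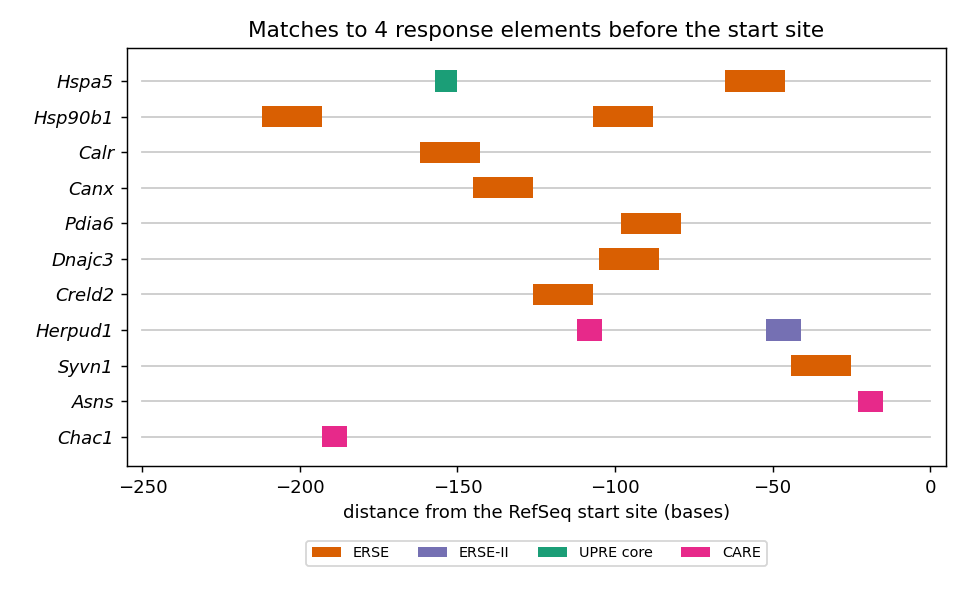
Position of matches to ERSE, ERSE-II, the UPRE core and CARE in the 250 bases before the RefSeq start site, for the 11 members that hold any, with distance from the start site in bases on the x axis. The ERSE matches lie between 212 and 44 bases before the start site, and Hsp90b1 alone has 2.

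The 8 members with ERSE lay between -0.10 and 0.22 on the log2 scale in FR F1 over control F1 livers, with a median of 0.03. Of the other genes with these letters, 23 were found in the count table by symbol, 9 were tested and 0 changed (edgeR, with 0 also before adjustment and 0 by both other tools), with a median log2 fold change of 0.11. With no filter on low counts Xlr3a of these 9 passed (adjusted p = 5.57e-06, edgeR), with 10, 242 and 30 counts in FR F1 and 6, 47 and 17 counts in control F1 libraries. Of the 23, Alg12 and 1700122E12Rik start on the other strand close to Creld2 and Calr, and their matches may be the same letters. A match is a run of letters and does not show that a factor binds there.

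Total counts ranged from 2468857 to 2730160 in the FR F1 libraries and from 2279755 to 2569934 in the control F1 libraries. All 10 hepatocyte markers were counted in every library, with a summed level of 6135 to 6740 CPM in FR F1 livers and 6078 to 7402 CPM in control F1 livers (CPM, counts scaled to library size after TMM normalisation). Of the 10, 7 had negative log2 fold changes, beside 50.0% of all genes, with a median of -0.19. Wholly lower in FR F1 livers were 3 (Alb, Hnf4a and Tat), beside 13.2% of all genes. In the test 0 passed (edgeR, with 3 before adjustment and 0 by both other tools). Markers of the sinusoidal endothelium were higher in sum, with 899 to 1071 CPM in FR F1 and 487 to 757 CPM in control F1 livers, as were those of stellate cells and fibroblasts, with 772 to 945 and 363 to 591 CPM. All 12 genes of each list had positive log2 fold changes, and 9 endothelial and 7 stellate genes lay wholly above in FR F1 livers, beside 12.5% of all genes. In edgeR 0 and 1 passed (8 and 9 before adjustment), beside 0.837% of all genes (17.9% before adjustment). DESeq2 called 5 and 4, beside 2.75% of its genes, and limma-voom 1 and 1, beside 0.791%. Kupffer cell and macrophage markers summed to 373 to 708 CPM in FR F1 and 284 to 547 CPM in control F1 livers, and cholangiocyte markers to 71.0 to 94.0 and 42.8 to 137 CPM. All 10 Kupffer cell and macrophage markers had positive log2 fold changes, 1 lay wholly above in FR F1 livers and 0 passed (edgeR). The part of these cell types in the members' values was not tested. B cell and plasma cell markers summed to 95.4 to 219 CPM and 41.0 to 99.0 CPM in FR F1 and control F1 livers, with Cd79a, Cd79b and Ms4a1 detected in all 6 libraries. Of the B cell and plasma cell list 5 genes were tested, and all 5 had positive log2 fold changes. Of these 3 lay wholly above in FR F1 livers and 0 passed (edgeR). Pancreatic acinar genes were at or near 0 but for Cela1, and 4 to 6 of the 8 were at 0 in each library. Among 12 clock genes, 3 rose and 2 fell in FR F1 livers (edgeR), beside 0.392% and 0.445% of all genes. The labels do not give the time of collection. In bulk liver, fewer cells of a type and less RNA per cell cannot be told apart. Counts of protein-coding genes rarely exceeded 1 per base of transcript (13 of 21769 genes), and the highest value was 1.16. Per kilobase of the longest transcript, Alb stood at 404 CPM over the 6 libraries, against 222 CPM for Calr. Whether a limit near 1 count per base narrows the fold change of abundant genes was not tested. Among the members Calr, P4hb and Pdia6 came nearest, at 0.625, 0.588 and 0.509 counts per base in their highest library. Of the 10 hepatocyte markers Alb, Ahsg and Apoa1 had the most, at 1.14, 1.07 and 0.887, and Apob the fewest, at 0.315. The part of such a limit in the sums and fold changes of the hepatocyte markers was not tested.

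**Figure D2:**
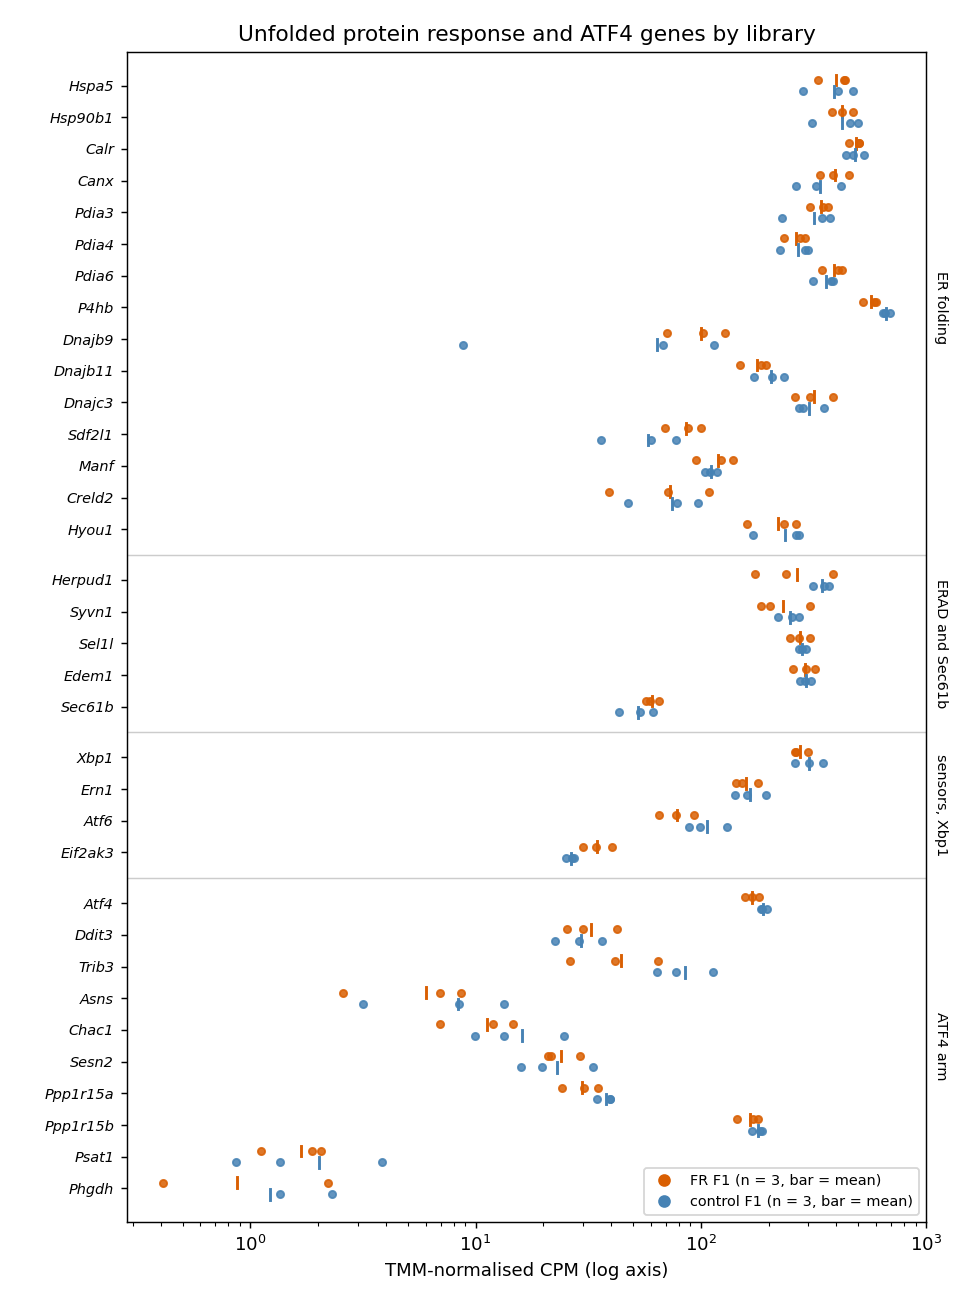
Expression of the 34 members in each library in CPM after TMM normalisation (log axis), with FR F1 (orange) above control F1 (blue). Points are libraries and bars are means of 3. The groups overlap for most genes, P4hb and Atf4 lie lower and Eif2ak3 higher in all FR F1 libraries, and control replicate 3 stands alone in Dnajb9 at 8.82 CPM (Phgdh is at 0 in 1 library of each group and is not drawn there).

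The 15 folding genes spanned a wide range of levels. Per kilobase of the longest transcript, Calr and P4hb were the most abundant of all members, at 222 and 216 CPM per kilobase over the 6 libraries, and Dnajb9 was the lowest folding gene, at 33.3 CPM per kilobase. Hspa5, which encodes the master chaperone BiP (ENSMUSG00000026864.13, mm10 chromosome 2, 34771970 to 34777547), had 330.2, 431 and 437 CPM in FR F1 livers and 405, 476 and 285 CPM in control F1 livers. The groups overlapped fully, and both extremes were control libraries. Its log2 fold change was 0.04 ± 0.20 (SE), with a 95% interval from 0.752-fold to 1.41-fold. Hsp90b1, the gene of the chaperone GRP94, had 381, 474 and 422 CPM in FR F1 livers and 458, 497 and 312 CPM in control F1 livers, a log2 fold change of 0.01 ± 0.18. It shares 415 of 4032 exonic bases with the pseudogene 1810014B01Rik on the other strand. That pseudogene had 402 to 509 counts in FR F1 and 477 to 490 counts in control F1 libraries. Calr, which encodes the lectin chaperone calreticulin, was the steadiest of the 3, with 455, 503 and 506 CPM in FR F1 and 442, 532 and 474 CPM in control F1 livers. Its interval ran from 0.856-fold to 1.19-fold.

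P4hb, which encodes protein disulfide isomerase (ENSMUSG00000025130.11, chromosome 11, 120560298 to 120573253), had 523, 587 and 603 CPM in FR F1 livers and 655, 692 and 645 CPM in control F1 livers. Every FR F1 library lay below every control F1 library, and such a separation, in either direction, was found in 3 of the 32 members and in 25.7% of all genes tested. The log2 fold change was -0.22 ± 0.09 (adjusted p = 0.268, edgeR). The other disulfide isomerase genes overlapped between groups, with log2 fold changes of 0.10 for Pdia3, -0.03 for Pdia4 and 0.12 for Pdia6. Canx, the gene of the membrane lectin calnexin, had 0.22 ± 0.18.

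Among the co-chaperones and smaller luminal proteins, Sdf2l1, a partner of the BiP cycle, had the smallest p after P4hb. It had 69.5, 87.7 and 100.1 CPM in FR F1 livers and 36.0, 60.4 and 77.9 CPM in control F1 livers, so that 1 control library lay above the lowest FR F1 library. The log2 fold change was 0.56 ± 0.28 (adjusted p = 0.326, edgeR), and 0.31 without control replicate 1. Dnajb9, which encodes the BiP co-chaperone ERdj4, was singled out after its values were seen. It had 70.7, 102 and 128 CPM in FR F1 livers and 114, 68.1 and 8.82 CPM in control F1 livers, the last from 23 counts. Its log2 fold change of 0.66 ± 0.67 was the highest of the members and was 0.13 without control replicate 3 and 1.40 without control replicate 1. With no filter on low counts it passed (adjusted p = 0.0448, edgeR), and over the fits tried its adjusted p lay between 0.0448 and 0.871. Creld2 and Hyou1, genes of a secreted stress protein and of an ATP exchange factor for BiP, spread widely in both groups. Creld2 had 39.3, 71.5 and 109 CPM in FR F1 and 47.7, 96.9 and 78.6 CPM in control F1 livers. Dnajb11, Dnajc3 and Manf had log2 fold changes of -0.21, 0.07 and 0.10.

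Among the 5 degradation and translocation genes 0 passed. Herpud1, which encodes a membrane organiser of the degradation complex and is raised by both arms, had 175, 239 and 387 CPM in FR F1 livers and 372, 315 and 353 CPM in control F1 livers. FR replicate 3 exceeded all control libraries while the other 2 FR libraries lay below them. The log2 fold change was -0.38 ± 0.26 (adjusted p = 0.457, edgeR), -0.14 without FR replicate 1 and -0.73 without FR replicate 3. The ubiquitin ligase gene Syvn1 had -0.10, its adaptor Sel1l -0.03 and the mannosidase-like gene Edem1 -0.01. Sel1l and Edem1 had narrow intervals, from 0.815-fold to 1.17-fold and from 0.822-fold to 1.20-fold. Sec61b, a subunit gene of the translocation channel, had 0.20 ± 0.18.

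Of the sensors, Eif2ak3 and Atf6 differed most, in opposite directions, and neither passed. Eif2ak3 (ENSMUSG00000031668.14, chromosome 6, 70844515 to 70905245) had 29.9, 34.3 and 40.2 CPM in FR F1 livers and 26.9, 27.5 and 25.3 CPM in control F1 livers. It was the only member with all FR F1 libraries above all control F1 libraries, as in 12.5% of all genes. P4hb and Atf4 were the 2 members with all FR F1 libraries below, as in 13.2% of all genes. Its log2 fold change was 0.39 ± 0.19 (adjusted p = 0.322, edgeR). It shares 485 of 6026 exonic bases with the gene model Gm43292 on the other strand, which had 3 to 6 counts in FR F1 and 6 to 11 counts in control F1 libraries. Atf6 had 65.1, 93.2 and 78.0 CPM in FR F1 livers and 88.9, 131 and 99.7 CPM in control F1 livers, with 1 FR library inside the control range. Its log2 fold change was -0.44 ± 0.20 (adjusted p = 0.298, edgeR), and -0.26 without control replicate 2. Ern1 had -0.06 ± 0.16 and Xbp1 -0.14 ± 0.13. Gene counts add up the spliced and unspliced forms of Xbp1, so IRE1 activity cannot be read from them.

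**Figure D3:**
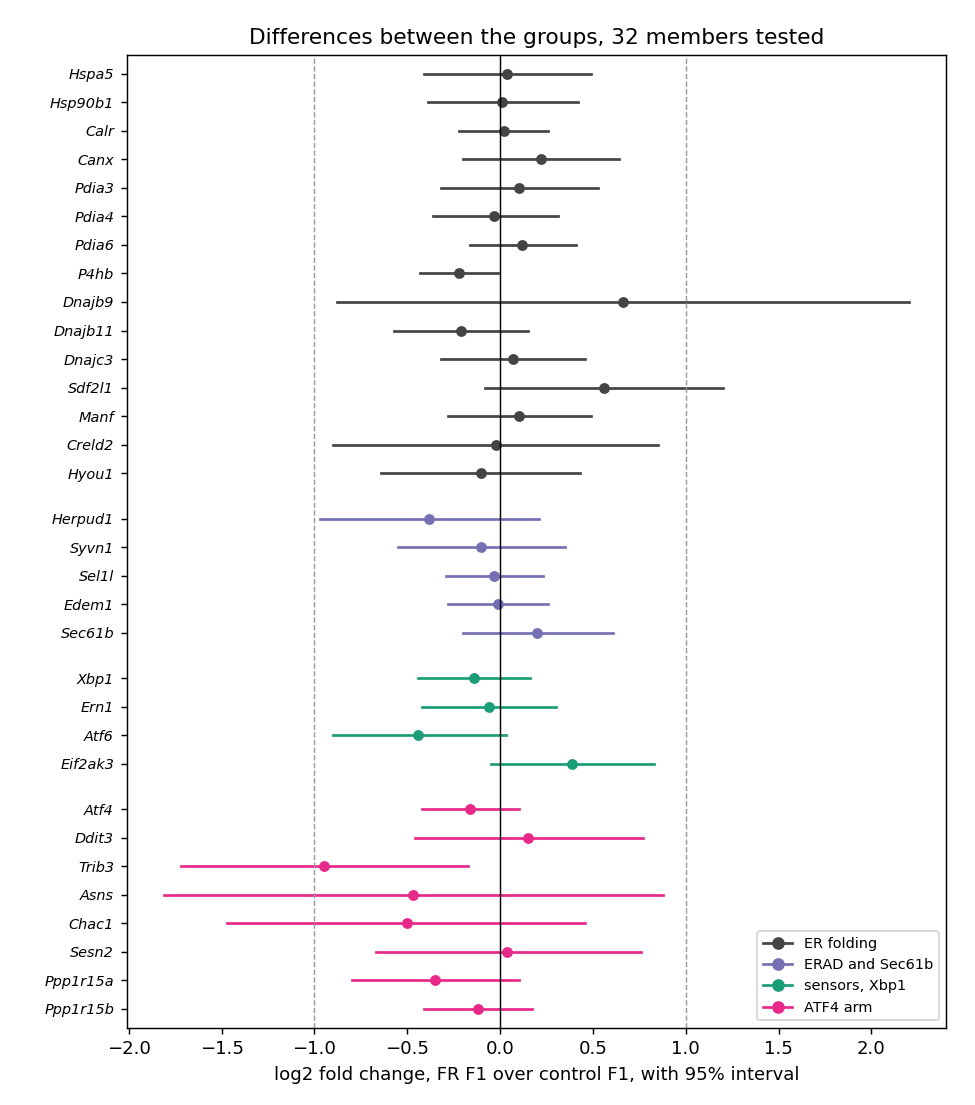
Log2 fold change of FR F1 over control F1 livers with its 95% interval for the 32 members tested, grouped by role, with dashed lines at a 2-fold difference. The intervals of 27 members lie inside the dashed lines, and those of Dnajb9, Sdf2l1, Trib3, Asns and Chac1 reach past them.

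In the ATF4 arm 6 of the 8 genes tested had negative log2 fold changes, beside 50.0% of all genes, and 0 changed (edgeR, with 1 before adjustment and 0 by both other tools). Atf4 itself (ENSMUSG00000042406.8, chromosome 15, 80255184 to 80257541) had 169.8, 181 and 158 CPM in FR F1 livers and 185, 197 and 188 CPM in control F1 livers. The groups did not overlap but lay close, and the log2 fold change was -0.16 ± 0.11 (adjusted p = 0.464, edgeR), with an interval from 0.747-fold to 1.07-fold. ATF4 protein is set by translation, which mRNA counts do not show.

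Trib3, a pseudokinase gene induced by ATF4 and CHOP that dampens their activity (ENSMUSG00000032715.9, chromosome 2, 152337422 to 152344032), had the lowest log2 fold change of the members. It had 26.2, 41.6 and 64.4 CPM in FR F1 livers and 113, 77.5 and 64.1 CPM in control F1 livers. The highest FR F1 and the lowest control F1 library were almost level, so the groups touched. The log2 fold change was -0.95 ± 0.34 (adjusted p = 0.213, edgeR), with an interval from 0.303-fold to 0.891-fold. Without 1 library at a time it ranged from -1.31, without FR replicate 3, to -0.67, without FR replicate 1. It passed in the fit with no filter on low counts (adjusted p = 0.000797, edgeR), which called 4.04% of its genes, and over the fits tried its adjusted p ranged from 0.000797 to 0.482.

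Ddit3, the gene of the pro-apoptotic factor CHOP, had 29.9, 25.4 and 42.7 CPM in FR F1 livers and 22.5, 28.8 and 36.4 CPM in control F1 livers, a log2 fold change of 0.15 ± 0.27. It shares 68 exonic bases with Mars on the other strand. Ppp1r15a, which encodes the inducible subunit GADD34 of the eIF2 phosphatase, had 24.3, 30.2 and 34.9 CPM in FR F1 livers and 34.7, 39.7 and 39.5 CPM in control F1 livers. Only FR replicate 3 reached the control range, and the log2 fold change was -0.35 ± 0.20 (adjusted p = 0.377, edgeR). The constitutive subunit gene Ppp1r15b had -0.12 ± 0.13 and shares 640 of 5594 exonic bases with the gene model Gm26616 on the other strand. The glutathione-degrading enzyme gene Chac1 had -0.50 ± 0.42, and -0.06 without control replicate 2. The stress-induced regulator Sesn2 had 0.04 ± 0.31.

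The amino acid synthesis genes were low in these livers. Asns, asparagine synthetase, had 23, 7 and 17 counts in FR F1 libraries and 31, 7 and 22 counts in control F1 libraries, and its interval, from 0.284-fold to 1.84-fold, was among the widest. Psat1 and Phgdh, of the serine pathway, were not tested. Psat1 had 5, 3 and 5 counts in FR F1 and 2, 3 and 10 counts in control F1 libraries. Phgdh had 0, 6 and 1 counts in FR F1 and 0, 3 and 6 counts in control F1 libraries. With so few counts no difference in Psat1 or Phgdh could be assessed.

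The intervals set limits on what could have been missed only for the spread among these 6 libraries, which may be technical. Whether counts near 1 per base narrow the intervals of abundant genes was not tested. For 27 of the 32 members the 95% interval lay wholly within a 2-fold difference in either direction, beside 61.0% of all genes tested. This held for 18 of 20 genes of the ATF6 and XBP1 arm, all 4 sensors and 5 of 8 genes of the ATF4 arm. The ATF4 genes were less abundant and varied more within groups, with a median SD of 0.38 on the log2 CPM scale, against 0.26 in the ATF6 and XBP1 arm and 0.27 over all genes.

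By library, neither arm's median separated the groups. The median deviation of the ATF6 and XBP1 arm from the mean of the 6 libraries stood at -0.18, 0.11 and 0.14 in FR replicates 1, 2 and 3 and 0.01, 0.11 and -0.03 in control replicates 1, 2 and 3 (log2 CPM). That of the ATF4 arm was -0.08, -0.13 and 0.10 in the FR libraries and 0.06, 0.13 and 0.18 in the control libraries. The difference between the arms was -0.10, 0.24 and 0.04 in FR F1 and -0.05, -0.02 and -0.21 in control F1 livers, so the groups overlapped. In summed CPM the ATF4 arm was lower in FR F1 livers, with 439 to 517 CPM against 555 to 582 CPM in control F1 livers, a sum in which Atf4, Ppp1r15b and Trib3 hold the most. The ATF6 and XBP1 arm summed to 4686 to 6024 CPM in FR F1 and 5131 to 5927 CPM in control F1 livers.

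**Figure D4:**
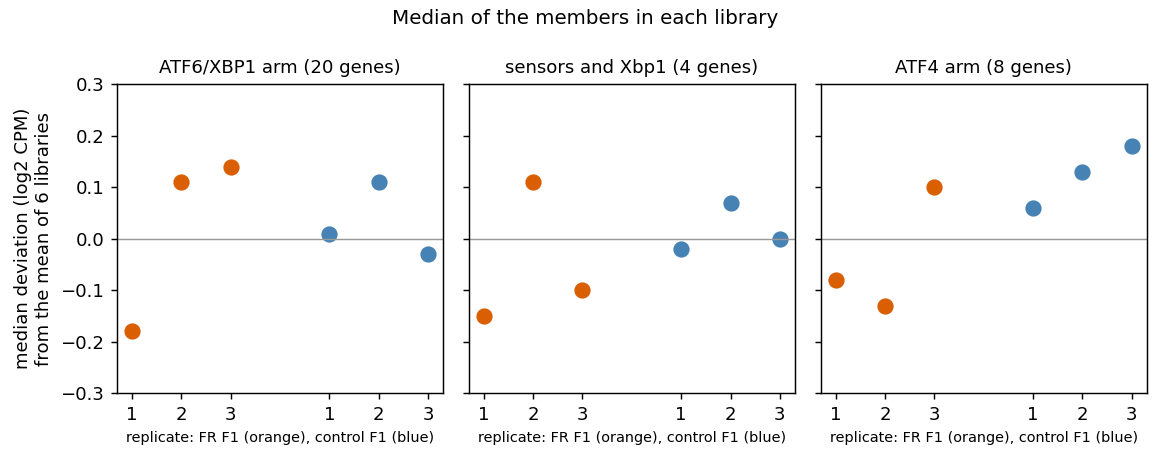
Median deviation of the tested members, in log2 CPM, relative to each gene's mean over 6 libraries, for the ATF6 and XBP1 arm, the sensors with Xbp1 and the ATF4 arm, with FR F1 (orange) left of control F1 (blue). FR replicate 1 is lowest in the ATF6 and XBP1 arm at -0.18, and FR replicate 3 lies at 0.14 in the same arm while in the ATF4 arm it lies at 0.10, between control replicates 1 and 2.

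A difference inside the FR F1 group stood out after the values were seen. FR replicate 1 had the lowest of the 6 values in 15 of the 32 members and the highest in 0, where it was lowest in 14.9% and highest in 14.2% of all genes tested. FR replicate 3 was highest in 11 members and lowest in 2, where it was highest in 14.2% of all genes. Highest values were not particular to that library, since control replicate 2 was highest in 12 members, beside 14.5% of all genes. Over all genes control replicate 3 held the most extremes, lowest in 25.8% and highest in 26.7%. Among the members it was lowest in 6 and highest in 4. In FR replicate 3 Herpud1, Creld2, Syvn1 and Hyou1 had 387, 109, 306 and 266 CPM, against 175, 39.3, 185 and 160.4 CPM in FR replicate 1. In FR replicate 1 the clock genes had a median deviation of -0.36 and B cell and plasma cell markers one of 0.95, against 0.33 and 0.09 in FR replicate 3. The clock genes did not move as a set, since FR replicate 1 was lowest in 5 and highest in 2 of the 12. Hepatocyte markers had -0.16 in FR replicate 1 and 0.06 in FR replicate 3. Of these 10 genes FR replicate 1 was lowest in 3 and highest in 0, control replicate 2 was highest in 5 and control replicate 3 lowest in 4. Markers of endothelium, stellate cells and Kupffer cells had 0.49, 0.39 and 0.59 in FR replicate 1 and 0.65, 0.34 and 0.53 in FR replicate 3. The part of any of these lists in the spread of the chaperones was not tested. Without FR replicate 1 the median log2 fold change of the ATF6 and XBP1 arm was 0.13, and 0 members passed.

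Around the members, 131 further genes of the pathway were listed, of which 119 were tested and 0 changed (edgeR). Before adjustment 21 had a p under 0.05, 9 of them higher and 12 lower, a share close to the 17.9% of all genes, and limma-voom called 0. In 31 of the 119 the groups did not overlap, as in 25.7% of all genes. DESeq2 called 4 of the 119, beside 2.75% of its genes, and their values follow as a description. Gdf15, a stress-induced cytokine gene, had 16.5, 34.3 and 49.6 CPM in FR F1 livers and 8.24, 4.51 and 14.2 CPM in control F1 livers, a log2 fold change of 1.87 ± 0.50 (adjusted p = 0.134, edgeR). Tars, threonyl-tRNA synthetase, had 194, 207 and 199 CPM in FR F1 livers and 140.5, 125 and 137 CPM in control F1 livers, a log2 fold change of 0.58 ± 0.11 (adjusted p = 0.0732, edgeR). Gpt2, a mitochondrial alanine aminotransferase gene, had 278, 312 and 387 CPM in FR F1 livers and 604, 489 and 498 CPM in control F1 livers, a log2 fold change of -0.70 ± 0.15 (adjusted p = 0.0804, edgeR). Cebpb, a partner of ATF4, was named after its values were seen and had 37.8, 44.6 and 57.9 CPM in FR F1 and 29.9, 16.7 and 10.7 CPM in control F1 livers, a log2 fold change of 1.29 ± 0.36 (adjusted p = 0.141, edgeR). The adjusted p in DESeq2 was 0.0129 for Gdf15, 0.0189 for Gpt2, 0.0216 for Tars and 0.0423 for Cebpb.

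Of 13 other ATF4 targets and partners tested, 10 were positive on the log2 scale and the median was 0.16. Over all genes 50.0% were negative. Whether the signs within this list and the lists that follow differ from that share was not tested. The 12 aminoacyl-tRNA synthetases, many of them also ATF4 targets, had 8 negative values and a median of -0.21. Of these Eprs had -0.31 ± 0.13 (adjusted p = 0.252, edgeR). The 11 eIF2 kinases and factors had 4 positive and 7 negative values and a median of -0.05. The 5 subunit genes of eIF2B, the exchange factor that eIF2 phosphorylation inhibits, were singled out after their values were seen. All 5 were negative, beside 50.0% of all genes, while 4 of the other 6 genes were positive. The 5 ran from -0.33 for Eif2b5 to -0.63 for Eif2b1, which had 50.9, 40.9 and 42.7 CPM in FR F1 livers and 60.7, 74.4 and 72.9 CPM in control F1 livers (adjusted p = 0.134, edgeR). Of 6 amino acid transporters tested 5 were negative, with a median of -0.30 and a lowest value of -0.55, and the smallest p belonged to Slc38a2 at -0.29 ± 0.13 (adjusted p = 0.290, edgeR) and Slc6a9 at -0.31 ± 0.25.

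Of the genes that act beside the chaperones, 18 other folding and oxidation genes were tested, with a median of -0.03 and a range from -0.46 to 0.76, and the smallest p belonged to Pdia5 at -0.43 ± 0.13 (adjusted p = 0.166, edgeR) and Txndc5 at -0.29 ± 0.11. The 16 other degradation genes had a median of 0.06, with Os9, a lectin gene, at -0.26 ± 0.11 and Vcp, the extraction ATPase gene, at 0.28 ± 0.13. For 20 translocation and glycosylation genes the median was 0.02, with Sec61g at 0.50 ± 0.18 and the signal recognition particle receptor gene Srpr at -0.25 ± 0.11. Of 13 genes of transport from the endoplasmic reticulum to the Golgi, 10 were negative. Sec31a, a coat subunit gene, had -0.46 ± 0.12 (adjusted p = 0.124, edgeR), and Bet1, a SNARE gene, had 1.02 ± 0.31 (adjusted p = 0.166, edgeR). The 10 other transcription factors and proteases of the response had a median of -0.10, and the smallest p belonged to Creb3 at -0.37 ± 0.16 and Nfyb at 0.36 ± 0.17.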

How the data were processed

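Liver polyA RNA was sequenced in 3 FR F1 and 3 control F1 libraries. Raw counts per gene, whole numbers, are in a single deposited table. STAR, StringTie, HTSeq, DESeq2 and mm10 are named, without roles, in the submitters' processing notes. For strand setting, shared reads and duplicate removal the sources used here give nothing. Columns were matched to samples by the codes in their descriptions. Of 53715 genes, 53620 matched a GENCODE M21 symbol.

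Counts were tested with edgeR 4.0.16 (R 4.3.3): filterByExpr (minimum count 10, minimum total 15), TMM, glmQLFit and glmQLFTest, two-sided. The SE is the absolute log2 fold change over the square root of F, and 95% intervals use the test's degrees of freedom. Alternatives were DESeq2 1.42.0, limma-voom 3.58.1, RLE and upper-quartile scaling, 2 filters, a replicate block, leaving out each library, and genes with at least 0.5 counts per base left out. The scripts were tested on simulated counts. Replicates differed beyond counting noise (chi-square 4.01 to 13.4 per degree of freedom). Named genes were the 8 members of smallest p, genes whose values stood apart, and 2 genes of smallest p per further list. Members and lists were chosen with earlier results of these data known. Promoters are from RefSeq GRCm38.p6.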

Additional observations from a re-analysis of the deposited data

How the results depend on the processing

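The number of changed genes over all genes, 109, was 423 with DESeq2, 1251 with no filter on low counts and 21 with the replicate block, and it ranged from 7, without FR replicate 1, to 651, without control replicate 1. The cause was not tested. Same-numbered libraries had correlations of -0.0173, 0.108 and 0.153 between their deviations from the group means. Libraries of different number ran from -0.221 to 0.155. With 3 libraries in each group these values cannot decide whether replicate numbers pair the samples. With the replicate block 0 members passed. The count of members changed was 0 in each alternative but 1, and was 2 (Trib3 and Dnajb9) with no filter on low counts. It was 0 in all 6 fits with a library left out. The median of the ATF4 arm was -0.13 with a CPM of at least 10 in 3 libraries, which removed 1 gene, and ranged from -0.25 to -0.12 with a library left out, the value of -0.12 being without control replicate 2. The median of the ATF6 and XBP1 arm stayed within -0.02 to 0.13 in every alternative.

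Of 252 member values under alternatives that kept all libraries, 4 changed sign, each close to 0. With the CPM filter Creld2 was 0.00, Edem1 0.01 and Pdia4 0.00, and with no filter Hsp90b1 was -0.00. With a library left out 31 of 192 values changed sign, in 16 members, none of which passed. Over these fits Asns ranged from -0.85 to 0.03, Calr from -0.04 to 0.09, Creld2 from -0.41 to 0.29, Ddit3 from -0.07 to 0.34, Dnajc3 from -0.10 to 0.20 and Edem1 from -0.08 to 0.08. Ern1 ranged from -0.16 to 0.07, Hsp90b1 from -0.17 to 0.14, Hspa5 from -0.14 to 0.21, Hyou1 from -0.29 to 0.09 and Manf from -0.01 to 0.25. Pdia3 ranged from -0.09 to 0.24, Pdia4 from -0.15 to 0.07, Sel1l from -0.10 to 0.05, Sesn2 from -0.16 to 0.41 and Syvn1 from -0.34 to 0.05. Calr, P4hb and Pdia6 have no value where genes near 1 count per base were left out.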
